A study of Mus musculus with 15 samples.

Results

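Kit, its ligand gene Kitl and 5 genes that mark luminal progenitor cells of the mammary gland (Elf5, Aldh1a3, Plet1, Cd14 and Ehf) were examined in mouse mammary tumours. The members were every non-control array probe that the array files name for 1 of these 7 genes, which gave 19 of 56605 probes. Of these, 18 passed the filter on dim probes, and each of the 7 genes was measured, among 22344 genes in all. The tumours arose spontaneously in MMTV-PyMT mice, in which a mammary tumour virus promoter drives the polyoma virus middle T oncogene in mammary epithelium. One group came from mice of the Wsh background (7 arrays) and the other from mice of the B6 background, C57BL/6 (8 arrays), and all mice were 20 weeks old, carried the transgene and were kept free of specific pathogens. Wsh is the common short name of the Kit W-sh allele, a rearrangement of chromosome 5 next to Kit that leaves adult mice without mast cells. The groups therefore differ in the Kit allele itself as well as in mast cells, and their effects cannot be told apart in this design. Separate mice are not stated for the tumours, and p-values therefore cover the spread from array to array, which may be partly technical.

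Kit encodes the receptor tyrosine kinase for stem cell factor, which is the product of Kitl. Mast cells, melanocytes and blood progenitors need this receptor, and in the mouse mammary gland it also marks luminal progenitors, the milk-lineage precursors that lack hormone receptors. Elf5 and Ehf encode ETS transcription factors of epithelium, and Elf5 drives the alveolar, milk-secreting fate. Aldh1a3 encodes a retinaldehyde dehydrogenase that makes retinoic acid. Plet1 and Cd14 encode surface proteins, and Cd14 is a coreceptor for bacterial lipopolysaccharide that macrophages carry as well. The question was whether Kit differed between backgrounds together with these genes, and whether it followed them from tumour to tumour within each background.

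Kit was read by 3 probes of 60 bases on chromosome 5 (build mm9), and their first 30 bases are shown because the 3 probes did not follow the same tumours in B6, as described further on. The probe of highest signal, taken as the main Kit probe, lies at chr5:76052394-76052453. The other 2 probes adjoin each other at chr5:76048202-76048261 and chr5:76048262-76048321, and the first of them starts 4192 bases before the main one. The array files tie these 2 to a different transcript record than the main probe. Whether each lies in a coding exon, an intron or a UTR was not looked up, since no mm9 annotation was used here. No capitals are set in these lines.
Kit A_66_P128434 (main): gtcaggtacttaaggggccacaccattgag
Kit A_55_P2935232: cctcatgccactgcataaaatttagatctt
Kit A_55_P2935231: cttgctgcaaagcagtctgggaaatgtagt

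Elf5 and Ehf proteins belong to a family whose members bind DNA at a GGAA core, so the promoters of Kit and of Plet1, the member with the highest Pearson correlation with Kit in B6, are shown here with that core in capitals (GGAA, or TTCC where it lies on the other strand). Each is a window of 300 bases, mostly before the annotated start, from the RefSeq table of build GRCm38.p6. The Kit promoter is chr5:75574737-75575036 and that of Plet1 chr9:50494275-50494574, both on the plus strand.
Kit: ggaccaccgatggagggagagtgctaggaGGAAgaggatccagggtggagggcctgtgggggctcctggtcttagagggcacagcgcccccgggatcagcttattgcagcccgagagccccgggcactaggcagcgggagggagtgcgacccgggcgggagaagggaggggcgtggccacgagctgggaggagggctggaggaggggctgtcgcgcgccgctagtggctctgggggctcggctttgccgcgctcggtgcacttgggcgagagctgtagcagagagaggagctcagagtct
Plet1: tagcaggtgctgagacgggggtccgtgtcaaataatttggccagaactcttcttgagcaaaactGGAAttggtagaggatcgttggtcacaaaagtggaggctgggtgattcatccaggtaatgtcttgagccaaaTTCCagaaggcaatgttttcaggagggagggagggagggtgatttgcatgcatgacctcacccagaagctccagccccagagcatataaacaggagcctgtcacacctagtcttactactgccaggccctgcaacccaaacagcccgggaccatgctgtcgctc

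The Kit window held 1 GGAA core and the Plet1 window 2, counted on both strands. The 2 Elf5 windows in the table held 2 and 1, and the Kitl window held 4. Of 32851 promoters of this length, 96.0% held at least 1 core and the median number was 3. The longer ETS motif CCGGAAGT, which contains the core, was in none of these windows and in 3.89% of all promoters. These are letters in a window and say nothing of binding.

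The arrays were 1-colour Agilent expression arrays, and each array was 1 tumour. Values are log2 of the processed intensity minus the array's 75th percentile, so 0 is the 75th percentile of that array and a difference of 1 is a doubling. The 75th percentile ran from 3550 to 4582 intensity units on Wsh arrays and from 3328 to 6406 on B6 arrays, and between 58.8% and 70.8% of spots were well above background in Wsh, against 55.7% to 73.4% in B6. The number of arrays limits the precision. Wsh replicate 1 stood apart from the other Wsh tumours, with the lowest mean of 11 pan-epithelial genes (2.84, the next being 3.25) and the highest mean of 11 macrophage genes (2.06, the next being 1.36). Skeletal muscle signal was high on 5 arrays, 4 of Wsh and 1 of B6 (mean of 7 muscle genes above 0). Some muscle transcripts were detected on every array, such as Tnni2, well above background on 7 Wsh and 8 B6 arrays.

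Kit was lower in Wsh tumours, and none of the 6 other members passed the test. On the main probe Kit had a lowest value of -0.18, a median of 0.65 and a highest of 1.40 in Wsh tumours, against 2.03, 3.30 and 3.84 in B6 tumours. Every Wsh tumour lay below every B6 tumour. The difference was -2.65 (SE 0.28, 95% confidence interval -3.25 to -2.05, limma adjusted p = 0.000208), a 6.29-fold lower level in Wsh. Kit was thus 1 of 7 members called at an adjusted p under 0.05, where 0.336% of all genes were called and 0.228% were lower in Wsh. It was also the 1 member whose groups did not overlap, as was the case for 0.358% of all genes. In bulk tumours, fewer Kit-expressing cells and less Kit RNA per cell cannot be told apart.

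The other 2 Kit probes were lower as well, and both were well above background on all 15 arrays. Probe A_55_P2935232 ranged from -3.59 to -2.10 with a median of -3.19 in Wsh tumours, against -1.20 to -0.17 with a median of -0.67 in B6 tumours. Probe A_55_P2935231 ranged from -2.89 to -1.28 with a median of -2.51 in Wsh tumours, against -0.39 to 0.68 with a median of 0.03 in B6 tumours. With every kept probe tested on its own, the differences of these 2 probes were -2.40 (SE 0.20) and -2.43 (SE 0.22), with limma adjusted p of 1.44e-05 and 2.79e-05. In that fit 0.332% of kept probes were called. Wsh replicate 5 was the highest Wsh tumour on all 3 Kit probes.

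**Figure D1:**
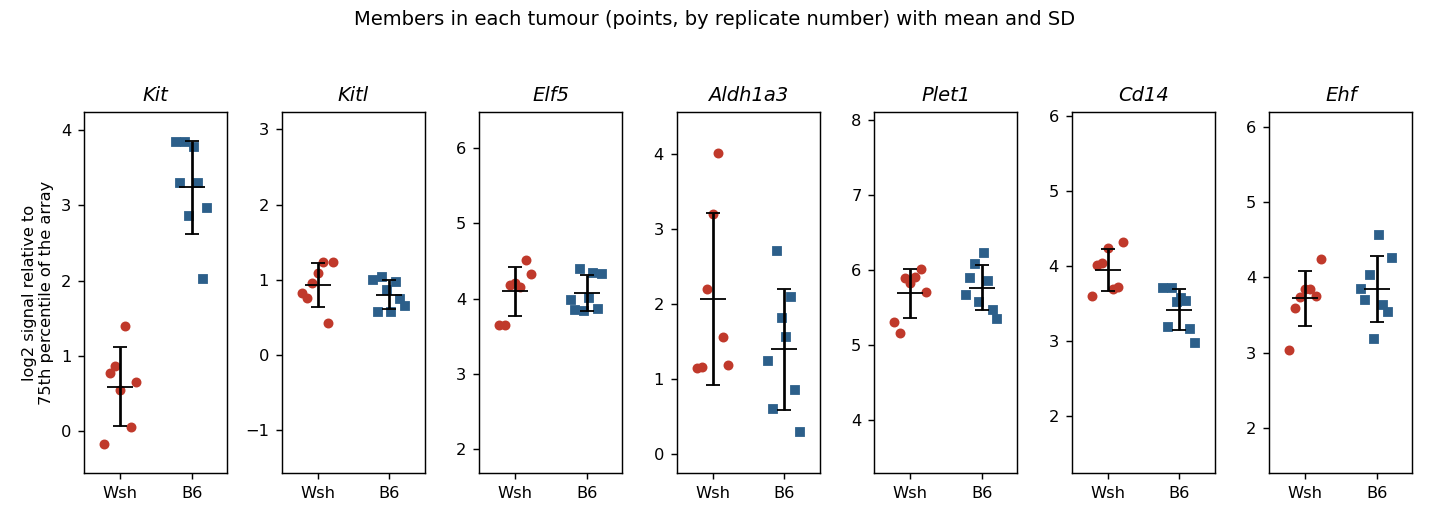
Main probe of each member in each tumour, as log2 signal relative to the 75th percentile of the array (vertical axis, the same span in every panel), for Wsh tumours (red circles, n = 7) and B6 tumours (blue squares, n = 8), with the mean and SD in black. Kit is separated between the groups, with Wsh from -0.18 to 1.40 and B6 from 2.03 to 3.84, while the groups overlap for the other members.

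The Kit difference was also fitted with list means of tissue genes as covariates, and the part of tissue content in it was not tested. With the pan-epithelial mean as a covariate Kit was -2.42, with the macrophage mean -2.52, and with the adipocyte and muscle means -2.57, each past the threshold. With the mean of Elf5, Aldh1a3, Plet1, Cd14 and Ehf as a covariate, a setting chosen after seeing the data, it was -2.90. Without Wsh replicate 1 it was -2.53 (limma adjusted p = 0.000603). Without the 5 arrays of high muscle signal, also chosen after seeing the data, it was -2.80 (adjusted p = 0.0293). On slide 1 alone it was -2.96 (adjusted p = 0.0491) and on slide 2 alone -2.32 (adjusted p = 0.372), with slide as a block -2.66.

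Mast cells carry Kit, so mast cell markers are given beside it. Of 13 mast cell genes other than Kit, 8 were measured, and 2 of them were called lower in Wsh, as were 0.228% of all genes. These were Mcpt4 and Cma1, genes of mast cell chymases. Mcpt4 was well above background on 0 of 7 Wsh arrays and 8 of 8 B6 arrays, with measured means of -7.40 in Wsh and -0.70 in B6, so it was at least 24.5-fold lower in Wsh (limma adjusted p = 0.000565). For this bound the B6 mean was set against a floor on each Wsh array, which was the dimmest detected signal there or the Mcpt4 signal if higher. Cma1 was well above background on 1 of 7 Wsh arrays and 7 of 8 B6 arrays (limma adjusted p = 0.00593). Its measured means were -6.91 in Wsh and -1.55 in B6, and no fold is given because most Wsh values were not above background. Cpa3, the mast cell carboxypeptidase gene, was detected on 0 Wsh and 7 B6 arrays and was not called (at least 6.48-fold lower in Wsh, adjusted p = 0.0714). Mcpt4, Cma1 and Cpa3 passed the filter on dim probes through the B6 arrays, the group where they were higher. Their p-values and the count of 2 called genes are therefore description and no separate evidence of a lower level in Wsh.

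None of the 5 other measured markers was called. Tpsb2 (a tryptase gene), Fcer1a (the IgE receptor alpha chain), Hdc (histamine synthesis), Gata2 and Il1rl1 were measured in both groups with adjusted p of 0.501 or more. Tpsab1, Mrgprb1 and Mrgprb2 were well above background on 0 of 15 arrays, and Ms4a2 and Ctsg were too dim for the test. The log2 of the summed mast cell signal ran from -0.79 to 1.24 in Wsh and from -0.11 to 3.23 in B6. The part of mast cells in the Kit difference was not tested. Of 5 genes of melanocytes, which also need the receptor, 4 were measured and 0 were called (median difference -0.12, with 3 below 0), and Tyrp1 was well above background on 0 of 15 arrays.

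Kitl, the ligand gene, was read by 3 probes on chromosome 10, the main one at chr10:99562481-99562540. It ranged from 0.42 to 1.24 with a median of 0.96 in Wsh tumours, against 0.56 to 1.04 with a median of 0.80 in B6 tumours. The groups overlapped, with 3 of 7 Wsh tumours inside the B6 range, and the difference was 0.13 (95% confidence interval -0.14 to 0.40, limma adjusted p = 0.797). The other 2 Kitl probes differed by 0.36 (-0.07 to 0.78) and 0.08 (-0.56 to 0.71).

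None of the genes downstream of the receptor or related to it was called by limma, and 1 of 19 signalling genes and 1 of 5 related receptor genes had an unadjusted p under 0.05, against 10.4% of all genes. Of 19 genes of Kit signalling, 11 were above 0 and 8 below, with a median difference of 0.01 against -0.01 over all 22344 genes. Shc1, an adaptor gene, had the largest absolute t of the list (-0.35, SE 0.13, limma adjusted p = 0.319). Pik3r1, which encodes the regulatory subunit of PI3 kinase, had 0.38 (SE 0.21), and Lyn, a Src family kinase gene, had 0.23 (SE 0.14). The 5 other class III and related receptor genes measured (Pdgfra, Pdgfrb, Csf1r, Flt3 and Kdr) gave 4 above 0 and a median of 0.12, the largest absolute t being that of Kdr, an endothelial receptor gene (0.36, SE 0.17, adjusted p = 0.459).

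**Figure D2:**
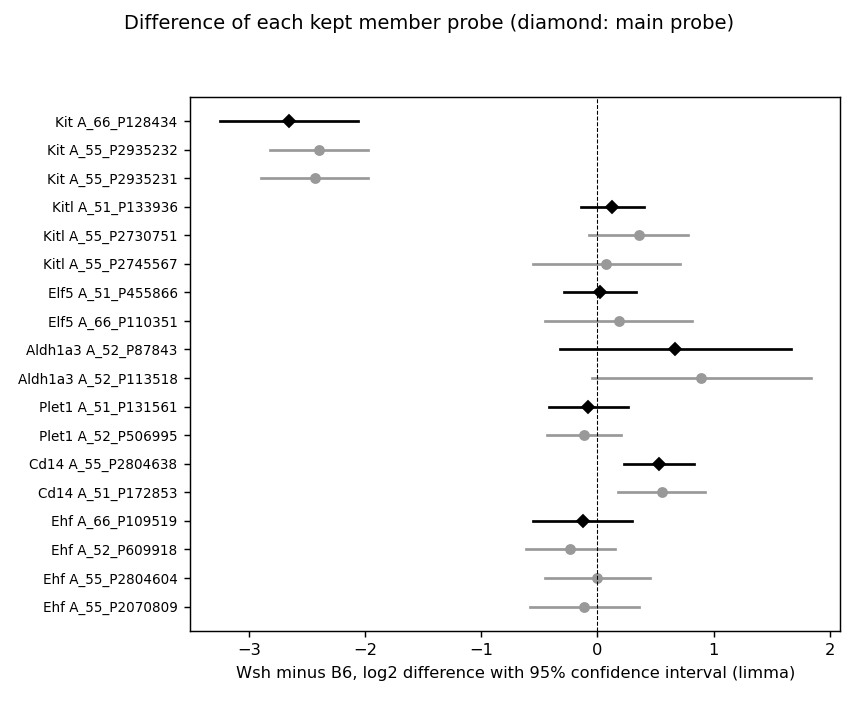
Difference of each of the 18 kept member probes, Wsh minus B6 in log2 units (horizontal axis), with 95% confidence intervals from limma with every kept probe tested on its own. Diamonds mark main probes and grey circles the others. The 3 Kit probes lie between -2.65 and -2.40, the Cd14 probes at 0.53 and 0.55, and intervals of the other genes span 0.

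Neither of the ETS factor genes Elf5 and Ehf passed the test, and both overlapped between the groups. Elf5 (main probe at chr2:103290958-103291017) had 3.64, 4.18 and 4.52 as lowest, median and highest value in Wsh tumours, against 3.84, 3.99 and 4.39 in B6 tumours. Its difference was 0.02 (95% confidence interval -0.29 to 0.33, limma adjusted p = 0.974), and 4 of 7 Wsh tumours lay inside the B6 range. A 2-fold change of Elf5, which is 1 on this scale, was outside the interval. The second Elf5 probe gave 0.18 (-0.45 to 0.81).

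Ehf (main probe at chr2:103106827-103106886) had 3.03, 3.76 and 4.24 in Wsh tumours, against 3.18, 3.78 and 4.57 in B6 tumours. The difference was -0.12 (-0.55 to 0.30, adjusted p = 0.894), and 6 of 7 Wsh tumours lay inside the B6 range. Its 3 other probes gave -0.23, -0.00079 and -0.11. Wsh replicate 1 had the lowest Ehf value of the 15 tumours, and without it the difference was -0.01.

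The wider ETS and prolactin lists held no gene called by limma. In them 1 of 9 and 2 of 7 genes had an unadjusted limma p under 0.05, against 10.4% of all genes. Of 9 other ETS genes 7 were below 0 (median -0.12), with Spdef, a luminal ETS factor gene, at -0.53 (SE 0.18, limma adjusted p = 0.279). Of 7 genes of prolactin and STAT5 signalling, the path that acts with Elf5 in alveolar cells, 6 were below 0 (median -0.21). Among them the prolactin receptor gene Prlr, which is also on the hormone-sensing list, had -0.44 (SE 0.14, adjusted p = 0.233) and Jak2, its kinase gene, -0.21 (SE 0.09, adjusted p = 0.413). Stat5a had -0.31 (SE 0.18, adjusted p = 0.588).

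Aldh1a3 had the widest spread of the members within a background. On the main probe (chr7:73535785-73535844) it had 1.14, 1.55 and 4.01 in Wsh tumours, against 0.29, 1.40 and 2.70 in B6 tumours. The SD was 1.14 in Wsh and 0.81 in B6, and 5 of 7 Wsh tumours lay inside the B6 range. The difference was 0.67 with a wide interval (-0.33 to 1.67, limma adjusted p = 0.679), which includes a 2-fold rise and leaves out a 2-fold fall. The second kept probe gave 0.90 (-0.05 to 1.84), and the third, A_55_P2596848, was well above background on 0 of 15 arrays. The 2 Wsh tumours of highest Aldh1a3, replicates 5 (4.01) and 4 (3.20), were among the arrays of high muscle signal. So were replicate 1, with the lowest Aldh1a3 of the Wsh tumours (1.14), and replicate 3 (2.19). Without the 5 such arrays, a setting chosen after seeing the data, the Aldh1a3 difference was -0.03 (limma adjusted p = 0.995). That setting drops the 2 highest Wsh values. The Aldh1a3 difference was 0.30 with the adipocyte and muscle means as covariates, and 0.35 without Wsh replicate 5 alone. The part of muscle content in it was not tested. Of 14 other retinoid genes, 13 were measured and 0 called, with 8 above 0, a median of 0.13 and 1 of 13 at an unadjusted p under 0.05, against 10.4% of all genes. Cyp26b1, which encodes an enzyme that breaks down retinoic acid, had 0.68 (SE 0.30, adjusted p = 0.456).

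Plet1 did not pass the test either, and its groups overlapped. Its main probe (chr9:50313107-50313166) had 5.17, 5.83 and 6.02 in Wsh tumours, against 5.36, 5.76 and 6.23 in B6 tumours. The difference was -0.08 (-0.41 to 0.26, limma adjusted p = 0.922), and the second probe gave -0.12 (-0.43 to 0.20). The 2 lowest Wsh tumours, replicates 2 (5.17) and 1 (5.30), lay just below the B6 range and the other 5 inside it.

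Cd14, on chromosome 18, was the member nearest to a call after Kit, in the opposite direction. It had 3.60, 4.01 and 4.32 in Wsh tumours, against 2.97, 3.52 and 3.71 in B6 tumours. The groups overlapped, with 2 of 7 Wsh tumours inside the B6 range. The difference was 0.53 (SE 0.14, 95% confidence interval 0.23 to 0.83, unadjusted p = 0.00202), and it was not called after adjustment over all genes (limma adjusted p = 0.164). The second Cd14 probe gave 0.55 (SE 0.18, adjusted p = 0.235). With array weights the main probe passed (0.63, adjusted p = 0.0318).

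Because macrophages also express Cd14, their markers are given beside it. Of 11 macrophage genes 10 were above 0 and 0 were called, with a median of 0.30, and the log2 of their summed signal ran from 5.12 to 6.14 in Wsh and from 4.53 to 6.02 in B6. Ms4a7, a macrophage membrane protein gene, had 0.43 (SE 0.14, adjusted p = 0.266). With the macrophage mean as a covariate, Cd14 was 0.54 (adjusted p = 0.156). Of 8 other genes of the lipopolysaccharide receptor path 7 were measured, with 6 above 0, 0 called and a median of 0.11, and Tlr4, the signalling receptor gene, had 0.21 (SE 0.13, adjusted p = 0.626). Of 8 neutrophil genes 6 were measured, with 5 above 0 and a median of 0.57, and none was called. At an unadjusted p under 0.05 there was 1 of 11 macrophage genes and 0 of the other 2 lists, against 10.4% of all genes.

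Further luminal progenitor genes gave no call in limma either. Of 14 such genes, 9 were above 0 and 5 below, with a median of 0.11 and 0 at an unadjusted p under 0.05. Sox10, a progenitor transcription factor gene, had the largest absolute t (-0.29, SE 0.17, limma adjusted p = 0.597), followed by Lbp, which encodes the lipopolysaccharide binding protein and is also on that receptor's list (0.32, SE 0.23), and Itga2, an integrin gene (0.32, SE 0.27). Of 11 hormone-sensing luminal genes, the sister lineage, 10 were below 0 with a median of -0.42, and 0 were called, with 4 at an unadjusted p under 0.05 (36.4%, against 10.4% of all genes). Pgr, the progesterone receptor gene, had -0.96 (SE 0.33, adjusted p = 0.306), and Foxa1, a pioneer factor gene of that lineage, -0.75 (SE 0.29, adjusted p = 0.376). Of 10 alveolar milk genes 8 were above 0 (median 0.14), and of 9 basal and myoepithelial genes 5 were above 0 (median 0.03), with 0 called in both. Of 11 pan-epithelial genes 10 were below 0 (median -0.12), again with 0 called, and the log2 of their summed signal ran from 7.55 to 8.11 in Wsh and from 7.69 to 8.38 in B6. The last 3 lists had 0 genes at an unadjusted p under 0.05. Outside the epithelium, 0 genes were called among 8 fibroblast (median -0.05), 6 endothelial (-0.05), 7 adipocyte (0.87) and 7 skeletal muscle genes (3.23, all above 0, with 3 of 7, or 42.9%, at an unadjusted p under 0.05).

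Within each background, Kit was then set against each other member, tumour by tumour, in 12 relations. All 12 Pearson correlations were above 0, and none passed after Benjamini-Hochberg adjustment over the 12 with exact two-sided permutation tests, while 1 of them passed unadjusted by r and 1 by rho. Over the 7 Wsh tumours r was 0.65 with Kitl and with Aldh1a3, 0.54 with Ehf, 0.26 with Cd14, 0.25 with Plet1 and 0.10 with Elf5. The lowest exact permutation p among these was 0.114 (Kitl, adjusted p = 0.354), and Spearman's rho ran from -0.25 (Elf5) to 0.57 (Aldh1a3). Over the 8 B6 tumours r was 0.71 with Plet1, 0.68 with Cd14, 0.52 with Ehf, 0.45 with Aldh1a3, 0.36 with Elf5 and 0.26 with Kitl.

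The closest relations in B6 were those with the 2 surface protein genes. In Wsh Kit had r 0.25 with Plet1 and 0.26 with Cd14 (exact permutation p = 0.599 and 0.558). In B6 Kit and Plet1 had an exact permutation p of 0.0450 (adjusted p = 0.347), a rho of 0.64 (p = 0.0962, adjusted p = 0.471) and an r of 0.74 without the 2 tumours of most extreme Plet1. In B6 Kit and Cd14 had an exact permutation p of 0.0579 for r (adjusted p = 0.347) and 0.00724 for rho (rho 0.88, adjusted p = 0.0869), with r 0.56 without the 2 tumours of most extreme Cd14. Whether the correlations differ between backgrounds was not tested. In Wsh, 3 of the 6 signs rested on replicate 1, since without it r was -0.45 with Elf5, -0.13 with Plet1 and -0.13 with Cd14. Without it r with Ehf was 0.0055, against 0.54 with all 7 tumours. Without Wsh replicate 5, an array of high muscle signal, r was 0.28 with Aldh1a3 and 0.059 with Plet1, and 0.79 with Cd14. In B6 the lowest r without 1 tumour was 0.085 with Kitl and 0.28 with Aldh1a3, both without replicate 3, and 0.13 with Elf5 without replicate 7. It was 0.41 or higher with Ehf, Plet1 and Cd14.

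**Figure D3:**
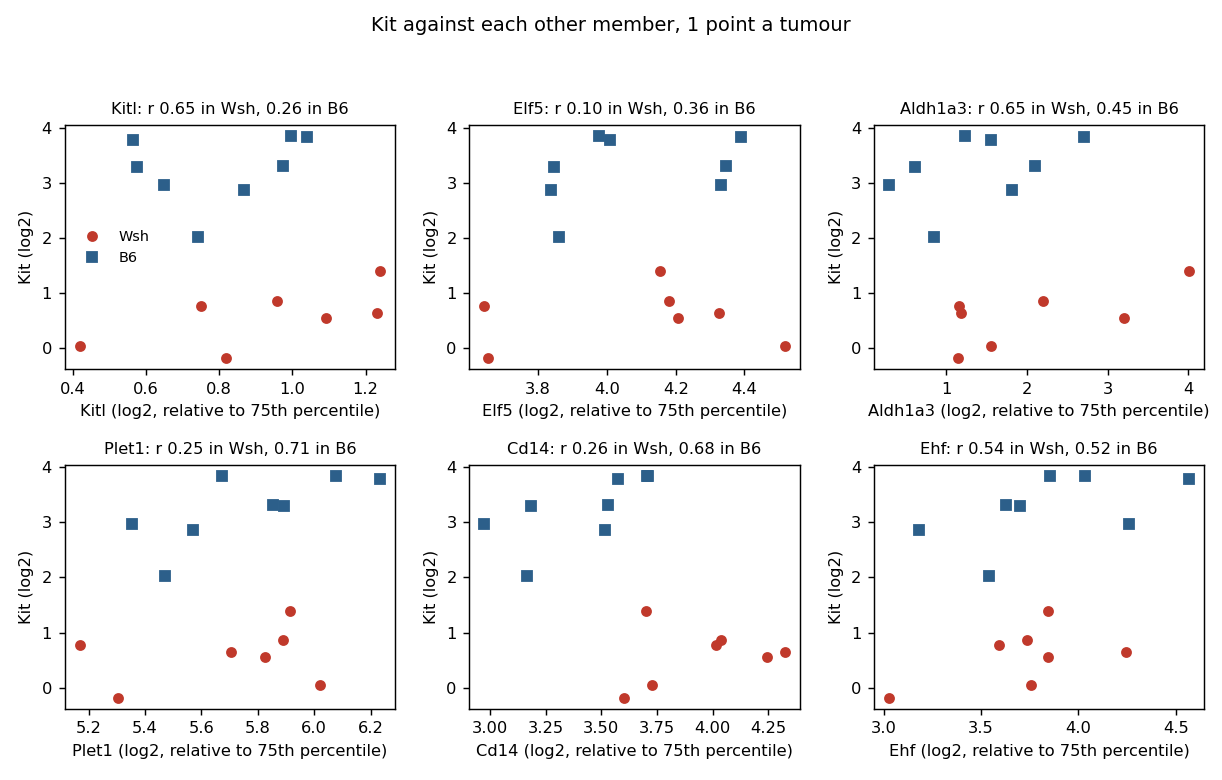
Kit main probe (vertical axis) against the main probe of each other member (horizontal axis), both as log2 signal relative to the 75th percentile of the array, for Wsh tumours (red circles, n = 7) and B6 tumours (blue squares, n = 8). Pearson r is given above each panel for Wsh and then B6, and none passed the adjusted exact permutation test.

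With each background centred on its own mean and all 15 arrays together, r was 0.53 with Aldh1a3 and with Ehf, 0.50 with Plet1 and with Cd14, 0.45 with Kitl and 0.23 with Elf5. The permutation p values of this setting, adjusted over the 6 relations, ran from 0.100 to 0.426. These points share the scaling and the tissue content of each array, and other genes give the scale. Over 14523 genes other than Kit that were well above background on all 15 arrays and named through the RefSeq table, the median r with Kit was 0.11 in Wsh and 0.22 in B6, and the 95th percentile 0.76 in Wsh and 0.82 in B6. Each of the 6 members lay below that percentile in both backgrounds. In Wsh the closest were Aldh1a3 and Kitl, at 10.1% from the top, and in B6 Plet1 at 12.9%.

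The choice of Kit probe mattered for these relations in B6. In Wsh the other 2 Kit probes had r of 0.89 and 0.90 with the main one over the 7 tumours, and in B6 only 0.40 and 0.30 over the 8 tumours. With these probes in place of the main one, Kit in Wsh had r of 0.67 and 0.73 with Aldh1a3, and of 0.60 and 0.56 with Kitl. In B6 it had r of 0.13 and 0.07 with Plet1, and of 0.0045 and -0.032 with Cd14. For the other members, further kept probes had r with the main probe of their gene from 0.56 to 0.93 in Wsh, and from 0.47 to 0.95 in B6 apart from Kitl probe A_55_P2745567 (-0.29).

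Kit was also set against the means of 12 cell type lists in each background, 24 relations in all, and 1 passed, that of the main Kit probe with pan-epithelial genes in B6. Over the 7 Wsh tumours Kit and the mean of 11 pan-epithelial genes had r 0.53 (exact permutation p = 0.252, adjusted p = 0.431), and -0.53 without replicates 1 and 7. They had r 0.91 over the 8 B6 tumours (exact permutation p = 0.000546, adjusted p = 0.0131) and rho 0.93 (p = 0.00223, adjusted p = 0.0536). The lowest tumour on both axes was B6 replicate 7, with Kit at 2.03 and the epithelial mean at 3.04, and the highest epithelial mean was that of replicate 3 (3.82), where Kit was 3.84. Without these 2 tumours r was 0.83. With values centred on each slide r was 0.91.

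The relation in B6 depended on settings and on the probe. The adjusted p was above 0.05 with quantile normalization (r 0.89, adjusted exact permutation p = 0.120), with median scaling (r 0.87, 0.112), with the deposited values (r 0.90, 0.100), and in 5 of 8 fits with 1 B6 tumour left out, of which the lowest r was 0.84 without replicate 7. With every gene, Kit and the epithelial genes alike, read as the mean of its kept probes, r was 0.68 (adjusted exact permutation p = 0.273). With the other 2 Kit probes, a setting chosen after seeing the data, it was 0.21 and 0.13.

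**Figure D4:**
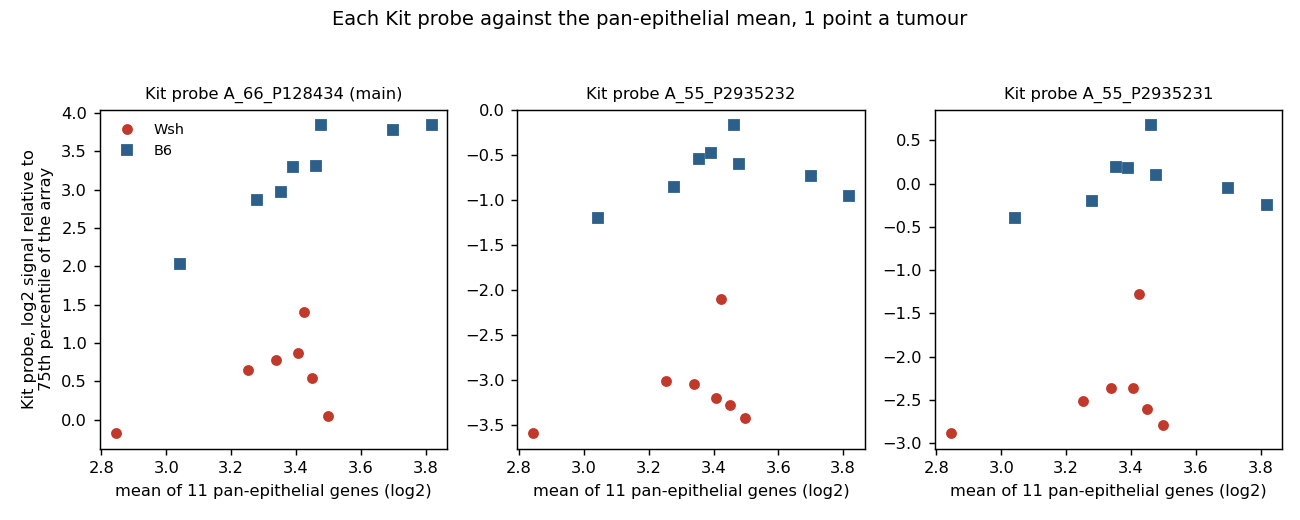
Each Kit probe (vertical axes, log2 signal relative to the 75th percentile of the array) against the mean of 11 pan-epithelial genes (horizontal axis, same scale), for Wsh tumours (red circles, n = 7) and B6 tumours (blue squares, n = 8). The main probe on the left follows the epithelial mean in B6 (r 0.91), while the other 2 probes, set against it after seeing the data, do not (r 0.21 and 0.13).

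Taken gene by gene, a step added after seeing the data, 10 of 11 epithelial genes had r above 0 with Kit in Wsh and 0 passed the exact permutation test after adjustment over 22 relations. The highest in Wsh was Grhl2, an epithelial transcription factor gene (r 0.81, exact permutation p = 0.0224, adjusted p = 0.0895). In B6 10 of 11 were above 0 as well and 4 passed. These were the serine protease inhibitor gene Spint1 (r 0.88, adjusted exact permutation p = 0.0338), the splicing regulator gene Esrp1 (r 0.88, 0.0471), the tight junction gene Cldn3 (r 0.86, 0.0338) and the keratin gene Krt8 (r 0.86, 0.0338). Spint1 was the 1 gene of them whose rho passed too (0.95, adjusted p = 0.0251). Without the 2 B6 tumours of most extreme value of each gene, r was 0.94 for Spint1, 0.82 for Krt8, 0.65 for Cldn3 and 0.41 for Esrp1. After subtraction of the epithelial mean from both genes on each array, r of Kit in Wsh was 0.53 with Kitl and with Aldh1a3, 0.30 with Ehf, 0.05 with Cd14, -0.16 with Plet1 and -0.38 with Elf5. In B6 it was 0.10 with Aldh1a3, -0.01 with Ehf, -0.04 with Cd14, -0.06 with Plet1, -0.51 with Kitl and -0.57 with Elf5. The subtraction takes the same amount from each gene, however steeply that gene follows the epithelial mean. These values are therefore not relations at equal epithelial content.

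Most other lists had r below 0 with Kit, and none of them passed (lowest adjusted exact permutation p = 0.168). In Wsh r was -0.80 with adipocyte, -0.77 with endothelial, -0.74 with neutrophil, -0.60 with macrophage, -0.46 with fibroblast and -0.38 with mast cell genes, and 0.80 with basal and myoepithelial genes. In B6 r was -0.69 with adipocyte, -0.40 with endothelial, -0.73 with neutrophil, -0.50 with macrophage, -0.69 with fibroblast and -0.69 with mast cell genes, and 0.22 with basal and myoepithelial genes. The macrophage value in Wsh was 0.89 without replicates 1 and 5. Other values moved as well without the 2 tumours of most extreme list mean. In Wsh r was then -0.84 with adipocyte, -0.19 with endothelial, -0.46 with neutrophil, 0.34 with fibroblast, -0.63 with mast cell and 0.49 with basal genes. In B6 it was -0.34 with adipocyte, -0.60 with endothelial, -0.10 with neutrophil and -0.31 with macrophage genes. It was -0.37 with fibroblast, -0.36 with mast cell and -0.13 with basal genes in B6. The mast cell mean includes Mcpt4, Cma1 and Cpa3, which were well above background on 0 or 1 of 7 Wsh arrays. Its r in Wsh therefore rests partly on values near the floor. With hormone-sensing luminal genes r was -0.59 in Wsh and -0.27 in B6, and with alveolar milk genes -0.39 in Wsh and -0.50 in B6. With melanocyte genes r was -0.41 in Wsh and -0.01 in B6, and with skeletal muscle genes 0.13 in Wsh and -0.38 in B6. Signs turned without the 2 tumours of most extreme list mean for hormone-sensing (0.49), alveolar milk (0.09) and skeletal muscle genes (0.26) in B6. In Wsh they turned for melanocyte (0.0075) and skeletal muscle genes (-0.14).

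Mast cell genes in B6 were also taken singly, in a step added after seeing the data. Of 8 measured genes, 7 had r below 0 with Kit over the 8 B6 tumours and 0 passed. Values were -0.65 for Mcpt4, -0.70 for Cma1 and -0.66 for Cpa3, and -0.79 for Fcer1a (adjusted exact permutation p = 0.103), whose rho of -0.90 did pass (adjusted p = 0.0365). Tpsb2 had r 0.28. The B6 tumours with the highest mast cell mean, replicates 7 (-0.66) and 4 (-0.75), had the lowest Kit values of the group (2.03 and 2.87). The same tumours had the lowest pan-epithelial means of the group (3.04 and 3.28). They also had its highest adipocyte (4.42 and 3.42), macrophage (1.45 and 1.96) and fibroblast means. Their basal and myoepithelial means (2.06 and 2.28) were not extreme. Whether Kit followed mast cell genes apart from these other tissues was not tested. With the other 2 Kit probes, a setting chosen after seeing the data, r of Kit with the mast cell mean in B6 was -0.15 and -0.12.

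**Figure D5:**
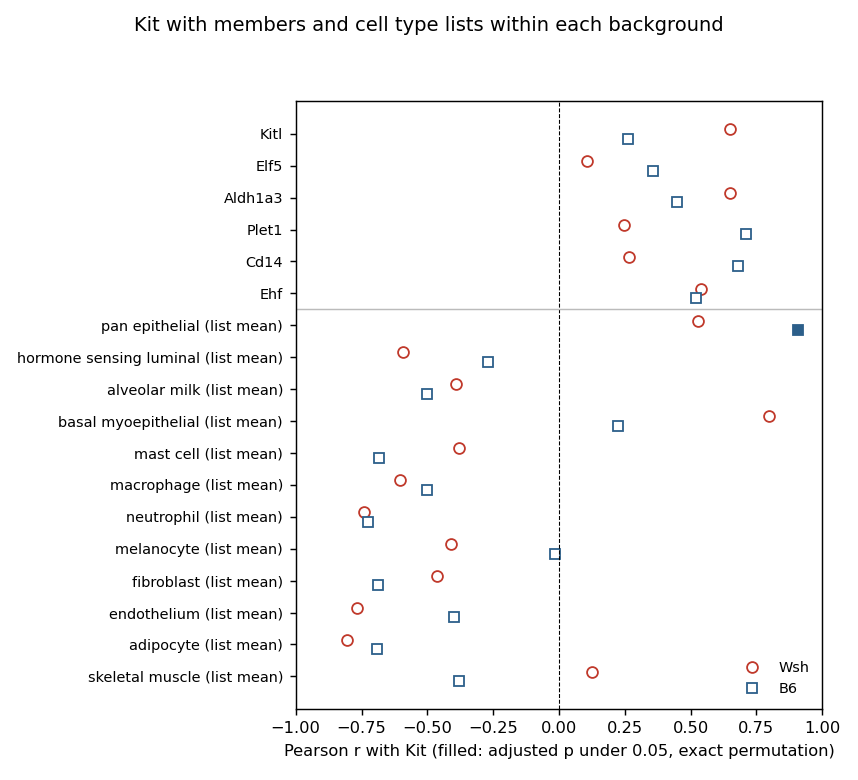
Pearson r of the Kit main probe with each other member (top) and with the mean of each cell type list (below the line), in Wsh tumours (red circles, n = 7) and B6 tumours (blue squares, n = 8). Filled symbols passed the exact permutation test at an adjusted p under 0.05, which 1 of 24 list relations and 0 of 12 member relations did.

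The genes most like Kit were other genes than the members. Over the 7 Wsh tumours the 5 highest r were those of Tmem121 (0.99), Enpp1 (0.99), Gm13261 (0.98), Krt23 (0.97) and Cops6 (0.97). Over the 8 B6 tumours they were those of Kcnk1 (0.99), Pitpnm3 (0.98), Igfbp5 (0.98), Rassf7 (0.97) and Vasp (0.97). With both backgrounds centred they were B4galt4 (0.95), Igfbp5 (0.94), Epha2 (0.93), Col9a2 (0.92) and Arhgef28 (0.92). These are the extremes of 14523 genes over few tumours and are given without a test. Igfbp5, which encodes an insulin-like growth factor binding protein, was the 1 gene on more than 1 of these lists, with r 0.87 in Wsh and 0.98 in B6. Its own difference between backgrounds was -0.01, and that of Epha2, an ephrin receptor gene, -0.03.

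Among the 6 members other than Kit, 30 relations were computed and none passed, with 2 at an unadjusted exact permutation p under 0.05. Elf5 and Plet1 had the highest r in Wsh (0.92, exact permutation p = 0.0139, adjusted p = 0.208), and 0.34 without replicates 1 and 2, the tumours low in both genes. In B6 that pair had r 0.14. Aldh1a3 and Cd14 had r -0.05 in Wsh and, in B6, the highest r of that group (0.83, exact permutation p = 0.0130, adjusted p = 0.208), which was 0.67 without the 2 tumours of most extreme Cd14. Ehf and Elf5, the ETS factor genes, had r 0.72 in Wsh (exact permutation p = 0.0577, adjusted p = 0.364) and 0.43 in B6. The smallest exact two-sided permutation p that 7 tumours allow is 0.000397, and 8 tumours allow 4.96e-05.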

How the data were processed

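Per the labels' protocols, RNA from whole tumours was copied into Cy3-labelled cRNA for 1-colour Agilent arrays. The deposited files hold spot intensity values read with Agilent Feature Extraction 10.7.3.1, per the file headers, background-subtracted and detrended within each array but not normalized between arrays. A further table by the authors gives log2 values for these arrays (column medians from 8.605 to 8.608) and served as an alternative. How its background, centring and scaling were set stays unknown. Per the submitters' processing notes, limma was used.

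From these files, spots flagged as outliers were dropped, replicate spots were averaged, and the 75th percentile of log2 processed signal was subtracted per array. Probes had to be well above background on 7 or more of the 15 arrays (34349 kept), the brightest kept probe by mean stood for its gene, and names came from accessions or symbols in a RefSeq table (assembly GRCm38, names only) or from the files. Wsh and B6 were compared over 22344 genes with limma 3.58.1 in R 4.3.3 (lmFit, eBayes, two-sided, Benjamini-Hochberg, threshold 0.05), of which 75 were called, 24 higher and 51 lower in Wsh. Correlations used SciPy 1.17.1 and NumPy 2.4.6 with all pairings enumerated within a background, or 100000 permutations over 15 arrays. Arrays lay on 2 slides, each with both groups. A slide held 3 or 4 arrays of a group, too few for a correlation, so slide-centred values were used. Same replicate numbers did not pair the tumours (correlations of deviations from -0.24 to 0.21).

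Named genes were the 7 members with every probe, up to 4 genes of each list with the largest absolute t, and the 5 genes most like Kit by Pearson r in each background and in both, centred. Members and lists were chosen with earlier results of these data known. The steps were tested on simulated data. Alternatives were other background, scaling, filter and probe choices, slide and replicate blocks, array weights, tissue covariates, deposited values and leaving out single arrays. Those chosen after seeing the data are named as such beside their values.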

Additional observations from a re-analysis of the deposited data

Results flagged for a closer look

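Of 74 groups of values examined, 12 held a tumour whose gap to its nearest neighbour was large against the range of its group (Dixon's criterion), and chance alone flags about 5% of groups. On member probes, Wsh replicate 5 was high on Kit probe A_55_P2935232 (-2.10, the next being -3.01) and on Kit probe A_55_P2935231 (-1.28, the next being -2.36). Wsh replicate 1 was low on Elf5 probe A_66_P110351 (-5.02, the next being -3.82) and on Ehf probes A_52_P609918 (1.58, the next being 1.98) and A_55_P2804604 (2.54, the next being 3.46). B6 replicate 5 was high on Kitl probe A_55_P2745567 (-0.90, the next being -2.41), the probe that ran against the main Kitl probe in B6.

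Among list means, Wsh replicate 1 was low for pan-epithelial genes (2.84) and high for macrophage genes (2.06), endothelial genes (-0.28) and the class III and related receptor genes (1.39). B6 replicate 7 was low for the further luminal progenitor genes (0.70, the next being 1.12), and B6 replicate 4 was high for skeletal muscle genes (1.17, the next being -2.82). The part of tissue content in these values was not tested.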

How the results depend on the processing

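The Kit difference stayed lower in Wsh in 19 other settings (-2.96 to -2.32) and in 15 fits without 1 array (-2.83 to -2.53, highest adjusted p = 0.000902), and missed the threshold on slide 2 alone (-2.32, limma adjusted p = 0.372). That fit has 7 arrays. Of the 7 members 1 was called, but 2 with array weights (Cd14 0.63, adjusted p = 0.0318) and 0 on slide 2 alone. Called genes numbered 75, but 25 without a filter (37008 genes tested), 114 with every probe tested, 50 with median scaling, 4 on slide 1 and 1 on slide 2 alone, 15 with the replicate block (Kit -2.69, adjusted p = 0.0172), 187 with array weights, 195 with the 5-member covariate and 25 without the muscle arrays (both chosen after seeing the data), and 25 to 76 with 1 array left out. The median of all genes was -0.11 with median scaling and -0.01 as reported. The cause of these shifts in counts was not tested.

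Members near 0 changed sign. Elf5 was -0.075 with median scaling, -0.091 on slide 1 and from -0.047 to 0.099 with 1 array left out. Plet1 was 0.15 on slide 2, 0.048 with the pan-epithelial covariate and from -0.14 to 0.010 with 1 array left out. Ehf was 0.023 with array weights and 0.014, 0.057 and 0.0093 with the epithelial, adipocyte and muscle, and macrophage covariates. Aldh1a3 was -0.034 without the muscle arrays, a setting chosen after seeing the data.

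Kit passed with 0 of 12 member relations in each of 9 other settings, and with 0 of 6 over all 15 arrays with each background centred. Signs turned on Kit probes A_55_P2935232 and A_55_P2935231 for Cd14 in Wsh (-0.040 and -0.14) and Aldh1a3 in B6 (-0.062 and -0.050), on the second for Cd14 in B6 (-0.032), with slide-centred values for Elf5 in Wsh (-0.040), and after subtracting the epithelial mean for Elf5 (-0.38) and Plet1 (-0.16) in Wsh and for Cd14 (-0.042), Ehf (-0.014), Elf5 (-0.57), Kitl (-0.51) and Plet1 (-0.055) in B6. With 1 Wsh array left out r ran from -0.13 to 0.79 for Cd14, from -0.45 to 0.49 for Elf5, from -0.13 to 0.56 for Plet1, from 0.0055 to 0.65 for Ehf, from 0.28 to 0.76 for Aldh1a3 and from 0.51 to 0.73 for Kitl. The 1 list relation past the threshold was that of Kit and pan-epithelial genes in B6 (r 0.91). It missed the threshold under quantile normalization (r 0.89), median scaling (r 0.87), the mean of probes (r 0.68) and deposited values (r 0.90). It also missed it with the other Kit probes, a setting chosen after seeing the data (r 0.21 and 0.13). The same held in 5 of 8 fits without 1 B6 array (r 0.84 to 0.96, count 0 to 1). The relation held with normexp and slide-centred values. It was not computed in the setting that subtracts the pan-epithelial mean itself. Of the 30 other member pairs 0 passed, but 3 with median scaling and 1 with the mean of probes.

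With 7 and 8 tumours, intervals of member differences were as wide as -0.33 to 1.67 (Aldh1a3). Signal over background limits Mcpt4, Cma1 and Cpa3, which were well above background on 0 or 1 of 7 Wsh arrays.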
